A study of Mus musculus with 22 samples.

Results

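The proteasome is the barrel-shaped protease that degrades proteins tagged with ubiquitin. Its core particle is built from α rings (Psma genes) and β rings (Psmb genes), and the β rings hold the active sites. The regulatory particle (Psmc and Psmd genes) caps the core: its base carries the ATPases that unfold substrates, and its lid removes the ubiquitin chain. In β-cells, which make large amounts of secretory protein, the proteasome clears misfolded proinsulin exported from the endoplasmic reticulum. Described here are the proteasome subunit genes of mouse β-cells, taken as all genes whose symbol is Psma, Psmb, Psmc or Psmd followed by a number, without the immunoproteasome genes Psmb8, Psmb9 and Psmb10, and with at least 10 counts in at least 5 libraries. Of 52327 genes in the table, 36 matched by name and 34 met the count rule, 14 of the core and 20 of the regulatory particle. Psma8, a testis-specific α subunit, and Psmb11, a thymus-specific β subunit, had 0 counts in every library. The 34 genes lie on 15 chromosomes.

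The libraries were made from pancreatic β-cells sorted by flow cytometry, 1 library per mouse, from 22 male mice of mixed background (Mix background in the labels) aged 3 months. All mice, controls included, carried GluDTR+, SstDTR htz and PpyDTR htz, transgenes for the diphtheria toxin receptor named for the glucagon, somatostatin and pancreatic polypeptide cells, so that diphtheria toxin (DT) ablates the non-β endocrine cells. The groups were refed DT (n = 6), refed control (n = 5), fasted DT (n = 6) and fasted control (n = 5), taken 1 month after ablation and after an 8 h fast, with 2 h of refeeding in the refed groups. What the control mice were injected with is not given in the sources used here. The design asks how feeding changes β-cell expression and whether this depends on the presence of the other islet cells.

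Libraries held 16584117 to 24988880 counts. All 10 β-cell markers were detected in every group, with a summed level of 465180 to 727365 CPM (counts scaled to a common library total). Insulin genes Ins1 and Ins2 took 40.3% to 51.1% of the counts in 21 libraries and 69.4% in refed DT mouse 13, which stood apart from its group in 10 of the 34 genes. Refed DT mouse 20 stood apart by mitochondrially encoded transcripts (13462 CPM) and immune markers (592 CPM). Acinar markers, a sign of exocrine cells or their free RNA, summed to 80.7 to 39239 CPM in refed DT, 1420 to 23943 CPM in refed control, 120.2 to 19104 CPM in fasted DT and 133 to 13720 CPM in fasted control mice. Fewer cells of a type and less RNA per cell cannot be told apart in such bulk libraries. Each CPM value is relative. Marker sums are scaled to the library total alone, and levels of single genes to the total with TMM factors. The sums and the gene levels are thus on unlike scales. Of the targeted cells, α-cell markers summed to 2.16 to 23.2 CPM in refed DT and 66.1 to 179 CPM in refed control mice, and to 4.24 to 38.5 CPM in fasted DT and 10.4 to 246 CPM in fasted control mice. Markers of δ-cells summed to 4.11 to 31.7 CPM in refed DT and 39.0 to 84.5 CPM in refed control mice, and to 12.3 to 48.5 CPM in fasted DT and 21.6 to 75.8 CPM in fasted control mice. The α- and δ-cell sums thus overlapped between DT and control mice when fasted and not when refed. Markers of pancreatic polypeptide cells overlapped between DT and control mice in both feeding states. They summed to 18.8 to 93.3 CPM in refed DT and 38.2 to 260.5 CPM in refed control mice. In fasted mice they summed to 7.07 to 29.2 CPM (DT) and 15.01 to 117 CPM (control). Both of these markers were higher on refeeding on average (edgeR), and their part in the results was not tested.

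The promoters of 4 members that the results turn on are shown first. Psmd14 had the largest rise on refeeding, Psmc5 the smallest p-value, Psmb5 is a catalytic subunit that rose, and Psmd9 was the member that fell. Sequences are RefSeq promoters on GRCm38.p6, 250 bases before to 50 after the annotated start, 5′ to 3′ on the gene's strand. Capitals mark matches, on either strand, to TGACNNNGC (the core of the antioxidant response element bound by Nfe2l1 and Nfe2l2), CCAAT (the box bound by NF-Y), CCGGAA (the core bound by ETS factors) or the heat shock element (GAA, TTC and GAA, each separated by NN). The Psmd14 promoter lies at chr2:61711444-61711743 (+), that of Psmc5 at chr11:106255935-106256234 (+), that of Psmb5 at chr14:54617946-54618245 (-) and that of Psmd9 at chr5:123227940-123228239 (+).
Psmd14: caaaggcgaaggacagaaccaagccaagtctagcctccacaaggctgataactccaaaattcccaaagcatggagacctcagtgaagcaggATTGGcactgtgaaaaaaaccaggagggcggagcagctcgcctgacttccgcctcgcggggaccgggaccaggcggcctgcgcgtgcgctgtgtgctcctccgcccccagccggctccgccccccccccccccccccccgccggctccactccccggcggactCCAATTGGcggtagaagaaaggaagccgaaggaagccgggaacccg
Psmc5: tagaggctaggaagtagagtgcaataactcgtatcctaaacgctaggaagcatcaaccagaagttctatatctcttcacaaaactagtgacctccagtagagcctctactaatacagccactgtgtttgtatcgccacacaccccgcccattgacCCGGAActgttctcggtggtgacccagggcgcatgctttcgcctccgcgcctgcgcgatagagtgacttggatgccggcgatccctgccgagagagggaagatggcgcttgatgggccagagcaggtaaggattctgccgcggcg
Psmb5: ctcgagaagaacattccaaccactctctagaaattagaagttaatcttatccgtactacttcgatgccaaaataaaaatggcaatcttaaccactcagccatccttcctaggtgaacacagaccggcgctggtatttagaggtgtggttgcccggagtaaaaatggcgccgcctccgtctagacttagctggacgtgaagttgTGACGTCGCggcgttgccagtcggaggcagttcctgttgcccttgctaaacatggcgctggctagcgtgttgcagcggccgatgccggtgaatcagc
Psmd9: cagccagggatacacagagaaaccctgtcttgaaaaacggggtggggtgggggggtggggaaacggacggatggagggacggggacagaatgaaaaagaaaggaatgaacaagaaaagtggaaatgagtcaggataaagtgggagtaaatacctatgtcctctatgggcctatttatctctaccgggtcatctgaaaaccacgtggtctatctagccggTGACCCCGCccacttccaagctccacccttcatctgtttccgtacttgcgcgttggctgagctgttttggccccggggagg
In Psmd14, CCAAT matches began at -159, 5 and 8 from the start, the last pair overlapping. Psmc5 held CCGGAA at -95. Psmb5 held TGACNNNGC at -47 and Psmd9 at -31, so this motif was present in a gene that rose and in the gene that fell.

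RefSeq promoters were matched for 28 of the 34 members, 11 of the core and 17 of the regulatory particle. CCGGAA was found in 15 of these 28 members (53.6%) and in 16.7% of all 27025 genes with a promoter. It occurred in 4 of 11 core genes and in 11 of 17 regulatory particle genes. TGACNNNGC was found in 5 of 28 members (17.9%), namely Psmb5, Psmb6, Psmc6, Psmd12 and Psmd9, and in 14% of all genes. CCAAT was found in 11 of 28 members (39.3%) and in 41.1% of all genes. The heat shock element was found in 0 of 28 members and in 0.662% of all genes. Base composition was not matched in these shares.

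Refeeding raised most proteasome subunit genes in β-cells, by modest amounts and in both particles. Averaged over DT and control mice, 11 of 14 core genes and 13 of 20 regulatory particle genes rose on refeeding, 1 regulatory particle gene fell, and 9 genes did not pass the test (edgeR quasi-likelihood, Benjamini-Hochberg adjusted p under 0.05). The background was high: 38.9% of the 14064 tested genes were called in this comparison, 17.2% as higher and 21.7% as lower. The members' share of higher calls lay above this background in both particles. Their median log2 fold change was 0.34 in the core (range 0.10 to 0.68) and 0.28 in the regulatory particle (range -0.45 to 0.85), against -0.06 over all genes tested. By part of the complex, 5 of 7 α-ring genes, 6 of 7 β-ring genes, 5 of 6 base ATPases, 1 of 3 other base genes and 7 of 8 lid genes rose. Of the 3 assembly chaperones that carry Psmd names, 0 rose and 1 fell. Without these chaperones, which leave the finished particle, 13 of 17 regulatory particle genes rose (median log2 fold change 0.30).

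**Figure D1:**
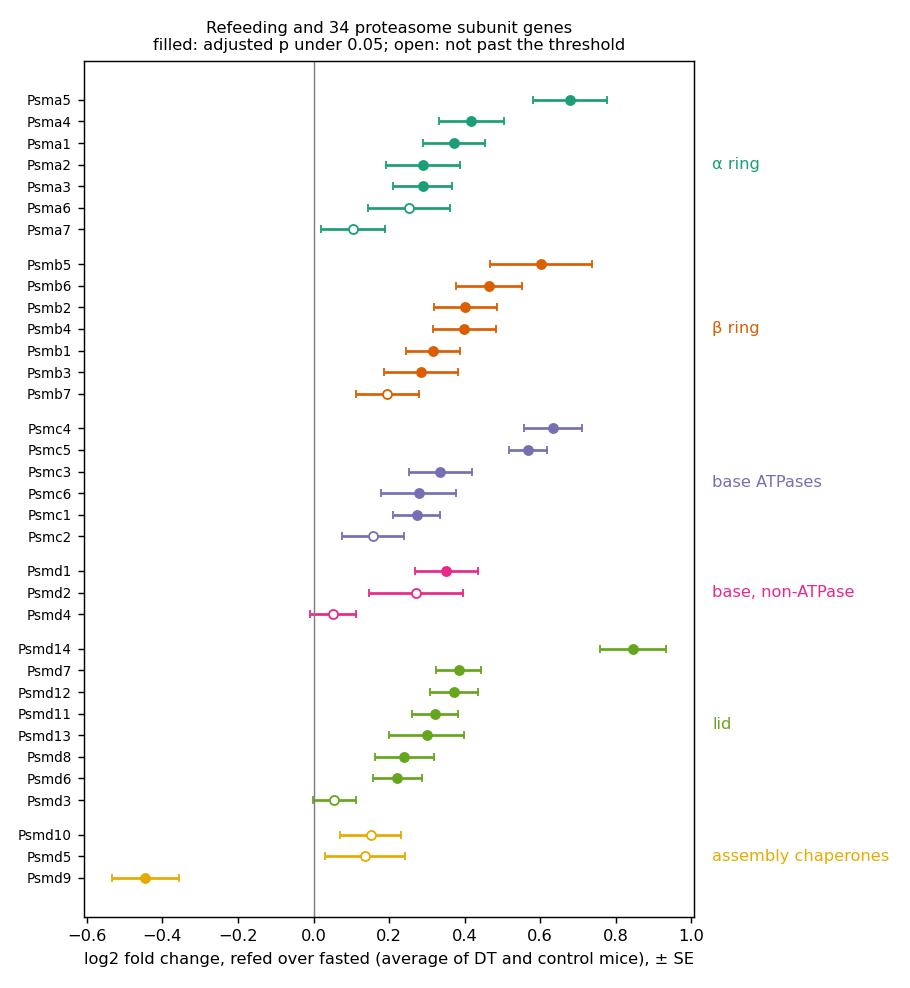
Log2 fold change of refed over fasted mice, averaged over DT and control mice, for the 34 genes by part of the complex, with bars of 1 SE; filled points passed the test and open points did not. Most points lie between 0.1 and 0.7, Psmd14 is highest at 0.85 and Psmd9 is the only point below 0, at -0.45.

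The calls depended in number on scaling and on mouse 13. With libraries scaled to their total without insulin counts, 9 core genes and 9 regulatory particle genes rose on average, where 13.3% of all tested genes were higher. The calls over all genes moved to 1864 higher and 3706 lower (33.5% of the calls higher). With TMM they were 2416 higher and 3054 lower (44.2% of the calls higher). Without mouse 13, 14 of 14 core genes and 16 of 20 regulatory particle genes rose, where 22.5% of all tested genes were higher. With acinar markers as a covariate, 10 core genes and 13 regulatory particle genes rose, where 15.8% were higher.

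Lid genes held the largest change. Psmd14 encodes the metalloprotease of the lid that cuts ubiquitin chains off substrates. Its level had a minimum of 47.9, a median of 53.2 and a maximum of 56.6 CPM in refed DT mice, against 23.3, 32.6 and 40.8 CPM in fasted DT mice. In refed control mice it was 46.4, 53.4, 61.0, 62.9 and 65.4 CPM, against 24.1, 28.2, 28.3, 28.9 and 34.9 CPM in fasted control mice. Every refed mouse lay above every fasted mouse, in DT and in control mice. The log2 fold change was 0.85 ± 0.09 (SE; 1.80-fold, edgeR adjusted p = 2.21e-07), and 0.69 ± 0.12 in DT mice (adjusted p = 2.35e-04) against 1.00 ± 0.13 in control mice (adjusted p = 1.5e-05). Psmd7, the catalytically inactive partner of Psmd14, averaged 72.6 ± 4.39 CPM in refed DT and 53.5 ± 3.17 CPM in fasted DT mice (SD, n = 6 each). It averaged 68.7 ± 6.88 CPM in refed control and 54.7 ± 5.91 CPM in fasted control mice (n = 5 each). Psmd7 rose by 0.38 ± 0.06 on the log2 scale (edgeR adjusted p = 2.79e-05), and its refed and fasted groups were separate in DT mice. Psmd12, a scaffold subunit of the lid, rose by 0.37 ± 0.06 (edgeR adjusted p = 6.97e-05), and Psmd11, another scaffold subunit, by 0.32 ± 0.06 (edgeR adjusted p = 2.52e-04). Psmd13, Psmd8 and Psmd6 rose by 0.30, 0.24 and 0.22. Each of these lost its call in 1 alternative run. For Psmd8 this was the run with libraries scaled without insulin counts (0.16, edgeR adjusted p = 0.108). Psmd3 had a log2 fold change of 0.06 ± 0.06 and did not pass the test. The exons of 9 of the 34 members overlap those of another gene. About 10.1% of the exon length of Psmd13 overlaps Sirt3 on the other strand, and reads carried no strand mark, so its value is uncertain.

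Among the base ATPases, the ring of proteins that unfolds substrates and feeds them into the core, Psmc4 and Psmc5 changed most. Psmc5 lay between 102 and 118 CPM (median 109) in refed DT mice, against 66.7 to 84.97 CPM (median 75.6) in fasted DT mice. In refed control mice Psmc5 was 100.1, 102, 106, 108 and 111 CPM, against 64.2, 67.8, 68.3, 70.3 and 74.3 CPM in fasted control mice. The groups did not overlap in either case, and mouse 13 was not low for this gene (112 CPM). Its log2 fold change was 0.57 ± 0.05 (1.48-fold, edgeR adjusted p = 2.79e-08), with 0.52 ± 0.07 in DT mice and 0.61 ± 0.07 in control mice. Psmc4 lay between 72.0 and 93.2 CPM (median 86.5) in refed DT mice, against 45.3 to 66.9 CPM (median 60.1) in fasted DT mice. Its control values were 80.3, 80.9, 87.1, 87.4 and 94.3 CPM in refed mice, against 46.4, 48.3, 48.9, 55.8 and 62.2 CPM in fasted mice. Refed mice again stood above fasted mice without overlap, with a log2 fold change of 0.63 ± 0.08 (edgeR adjusted p = 1.35e-06). Psmc3, Psmc6 and Psmc1 rose by 0.34, 0.28 and 0.27, while Psmc2 had a log2 fold change of 0.16 ± 0.08 (edgeR adjusted p = 0.134) and was called without mouse 13 (0.25, adjusted p = 7.80e-03). With libraries scaled without insulin counts, the Psmc2 value was 0.076 (edgeR adjusted p = 0.502). Psmc6 lost its call without any 1 of fasted DT mice 9 and 11, refed control mouse 18 and refed DT mice 15 and 17.

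The other base genes encode the large scaffold proteins Psmd1 and Psmd2 and the ubiquitin receptor Psmd4. Psmd1 rose by 0.35 ± 0.08 on the log2 scale (edgeR adjusted p = 1.96e-03). Psmd2 did not pass the test on average (0.27 ± 0.12, edgeR adjusted p = 0.0894): mouse 13 had 74.3 CPM, while the other refed DT mice had 194 to 221 CPM. Without mouse 13, Psmd2 was called (log2 fold change 0.40), as it was by DESeq2 with all mice (0.30, adjusted p = 0.0494). Psmd2 was not called with libraries scaled without insulin counts (0.19, edgeR adjusted p = 0.238). Nor was it called with acinar markers as a covariate (0.28, edgeR adjusted p = 0.111). Psmd4 averaged 67.5 ± 4.37 CPM in refed DT, 61.3 ± 5.72 CPM in refed control, 61.4 ± 5.87 CPM in fasted DT and 62.9 ± 5.46 CPM in fasted control mice. Its average log2 fold change on refeeding was 0.05 ± 0.06, and -0.031 when libraries were scaled without insulin counts.

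In the α ring, which gates entry to the core, Psma5 changed most. Psma5 lay between 38.8 and 58.8 CPM (median 53.9) in refed DT mice, against 23.7 to 41.4 CPM (median 33.7) in fasted DT mice. In refed control mice it was 41.3, 45.8, 49.3, 52.0 and 55.1 CPM, against 24.3, 28.5, 30.0, 31.1 and 34.2 CPM in fasted control mice. The control groups were separate, and the DT groups overlapped only through mouse 13, the lowest refed DT mouse. Psma5 rose by 0.68 ± 0.10 on the log2 scale (1.60-fold, edgeR adjusted p = 1.31e-05). Psma4 rose by 0.42 ± 0.09 (edgeR adjusted p = 5.69e-04), and Psma1, Psma2 and Psma3 by 0.37, 0.29 and 0.29. Psma2 lost its call in 1 alternative run. Psma6 and Psma7 had log2 fold changes of 0.25 ± 0.11 and 0.10 ± 0.09 and did not pass the test. Both were called without mouse 13 (0.37 and 0.20). With libraries scaled without insulin counts neither was called (0.17 and 0.024, edgeR adjusted p = 0.226 and 0.856).

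The β ring holds the catalytic subunits Psmb6 (caspase-like activity), Psmb7 (trypsin-like activity) and Psmb5 (chymotrypsin-like activity). Psmb5 lay between 22.7 and 37.1 CPM (median 31.5) in refed DT mice, against 18.1 to 31.1 CPM (median 21.2) in fasted DT mice. Its control values were 22.02, 30.4, 31.1, 32.2 and 33.7 CPM in refed mice, against 10.2, 15.7, 17.1, 19.04 and 27.4 CPM in fasted mice. The groups overlapped in both cases, and the rise averaged 0.60 ± 0.14 on the log2 scale (1.52-fold, edgeR adjusted p = 1.26e-03). Psmb6 lay between 89.9 and 125 CPM (median 111) in refed DT mice, against 70.3 to 106 CPM (median 83.3) in fasted DT mice. It had 104, 110.4, 117, 122 and 137 CPM in refed control mice, against 67.5, 74.4, 74.9, 80.8 and 93.9 CPM in fasted control mice. The control groups did not overlap, and Psmb6 rose by 0.46 ± 0.09 (edgeR adjusted p = 2.18e-04). Psmb7 averaged 28.2 ± 2.03 CPM in refed DT, 26.9 ± 1.99 CPM in refed control, 25.2 ± 4.45 CPM in fasted DT and 23.0 ± 2.96 CPM in fasted control mice, and its log2 fold change of 0.20 ± 0.08 did not pass the test (edgeR adjusted p = 0.0666). It was called by DESeq2 and limma voom, and without any 1 of fasted DT mouse 6, refed control mouse 21 and refed DT mouse 13. Psmb7 was not called with libraries scaled without insulin counts (0.12, edgeR adjusted p = 0.301). Nor was it called with acinar markers as a covariate (0.17, edgeR adjusted p = 0.133). Of the structural β subunits, Psmb2, Psmb4, Psmb1 and Psmb3 rose by 0.40, 0.40, 0.32 and 0.28. Psmb3 lost its call without fasted control mouse 5 or refed control mouse 22. About 12.1% of the exon length of Psmb5 lies under Mir686 and 11.8% of that of Psmb7 overlaps Nek6.

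Psmd9, Psmd5 and Psmd10 are chaperones that hold pieces of the base during assembly. Of these, Psmd9 fell and the others did not pass the average test. Psmd9 lay between 8.65 and 14.8 CPM (median 12.1) in refed DT mice, against 11.1 to 15.8 CPM (median 13.8) in fasted DT mice. In refed control mice it was 9.36, 11.1, 11.1, 11.4 and 12.8 CPM, against 16.7, 17.4, 17.4, 17.8 and 19 CPM in fasted control mice. Every refed control mouse lay below every fasted control mouse, whereas the DT groups overlapped. Psmd9 fell by 0.45 on the log2 scale on average (SE 0.09, edgeR adjusted p = 3.90e-04) and by 0.66 in control mice (SE 0.13, adjusted p = 8.35e-04), and its value in DT mice was -0.23 ± 0.12 (adjusted p = 0.176). About 25.5% of the exon length of Psmd9 overlaps a lincRNA on the other strand, Gm26745, so reads of both cannot be told apart, and its counts were the lowest of all members (lowest 134, median 279). Psmd10 lay between 13.5 and 19.6 CPM (median 15.3) in refed DT mice, against 11.04 to 14.2 CPM (median 11.9) in fasted DT mice. It had 13.4, 13.7, 13.99, 15.5 and 17.2 CPM in refed control mice, against 14.3, 14.5, 15.6, 16.01 and 16.7 CPM in fasted control mice. Its log2 fold change was 0.36 ± 0.11 in DT mice (edgeR adjusted p = 0.0174) and -0.06 ± 0.12 in control mice. Psmd5 averaged 50.2 ± 13.6 CPM in refed DT, 50.4 ± 3.68 CPM in refed control, 45.7 ± 3.53 CPM in fasted DT and 45.8 ± 3.67 CPM in fasted control mice, and had an average log2 fold change of 0.14 ± 0.11 that did not pass the test. Mouse 13, at 25.5 CPM, was the lowest refed DT mouse, and without it Psmd5 was called (0.26, edgeR adjusted p = 2.15e-03). With libraries scaled without insulin counts, the Psmd5 value was 0.056 (edgeR adjusted p = 0.727).

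**Figure D2:**
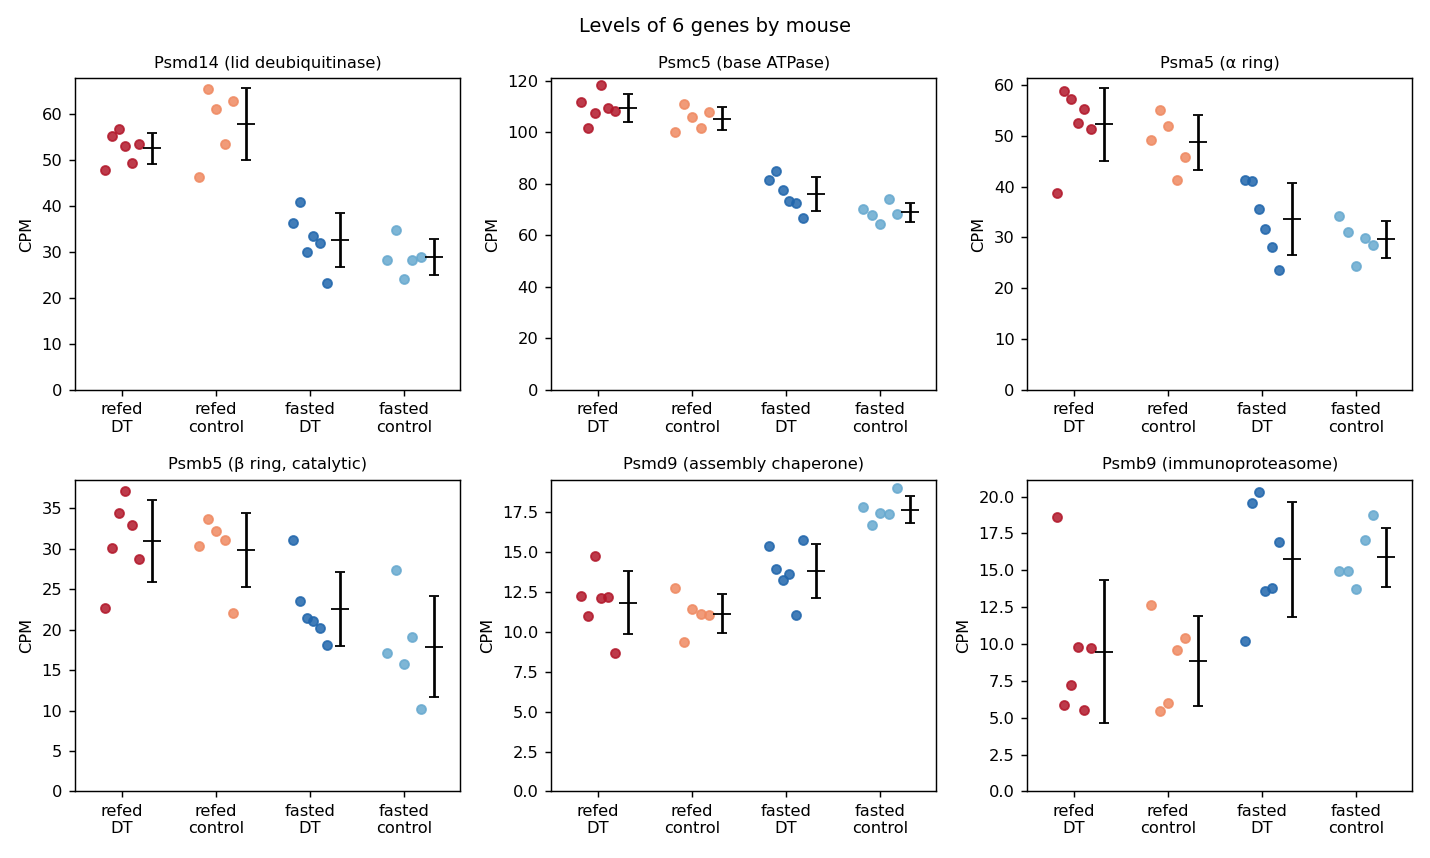
CPM by mouse (points) with mean ± SD (bars) for 6 genes in refed DT, refed control, fasted DT and fasted control mice. Psmd14 and Psmc5 separate refed from fasted mice without overlap, within DT mice Psma5 overlaps through 1 refed mouse at 38.8 CPM, and Psmd9 and Psmb9 are lower in refed than in fasted control mice without overlap.

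Core and regulatory particle genes were compared by the mean log2 CPM of their members in each mouse. The core mean was 6.12 ± 0.20 in refed DT mice and 5.79 ± 0.23 in fasted DT mice (SD, n = 6 each), and 6.09 ± 0.09 in refed control and 5.69 ± 0.14 in fasted control mice (n = 5 each). The regulatory particle mean was 6.08 ± 0.16 in refed DT and 5.84 ± 0.12 in fasted DT mice, and 6.12 ± 0.05 in refed control and 5.82 ± 0.05 in fasted control mice. In control mice the refed and fasted values were separate for both particles. In DT mice they overlapped through mouse 13, at 5.74 for the core and 5.76 for the regulatory particle. The other refed DT mice lay between 6.08 and 6.27 for the core and between 6.06 and 6.21 for the regulatory particle. Core minus regulatory particle was 0.04 ± 0.04 in refed DT, -0.03 ± 0.04 in refed control, -0.05 ± 0.12 in fasted DT and -0.13 ± 0.09 in fasted control mice. The difference was thus 0.09 higher in refed than in fasted DT mice and 0.10 higher in refed than in fasted control mice, of the size of the spread among fasted mice. With medians in place of means the shift was -0.022 in DT and 0.076 in control mice, and without the assembly chaperones it was 0.057 in DT and 0.015 in control mice, so its size and its sign in DT mice depended on the summary. Core levels also spread more than regulatory particle levels among fasted mice, with SDs of 0.23 and 0.14 for the core against 0.12 and 0.05. All 34 genes together held 0.261 ± 0.071% of the counts in refed DT and 0.276 ± 0.013% in refed control mice (SD). In fasted mice they held 0.232 ± 0.020% (DT) and 0.214 ± 0.0096% (control). Mouse 13 held 0.119%, and the refed DT median was 0.283%. Of the counts without insulin, the means were 0.509% in refed DT, 0.508% in refed control, 0.445% in fasted DT and 0.421% in fasted control mice.

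**Figure D3:**
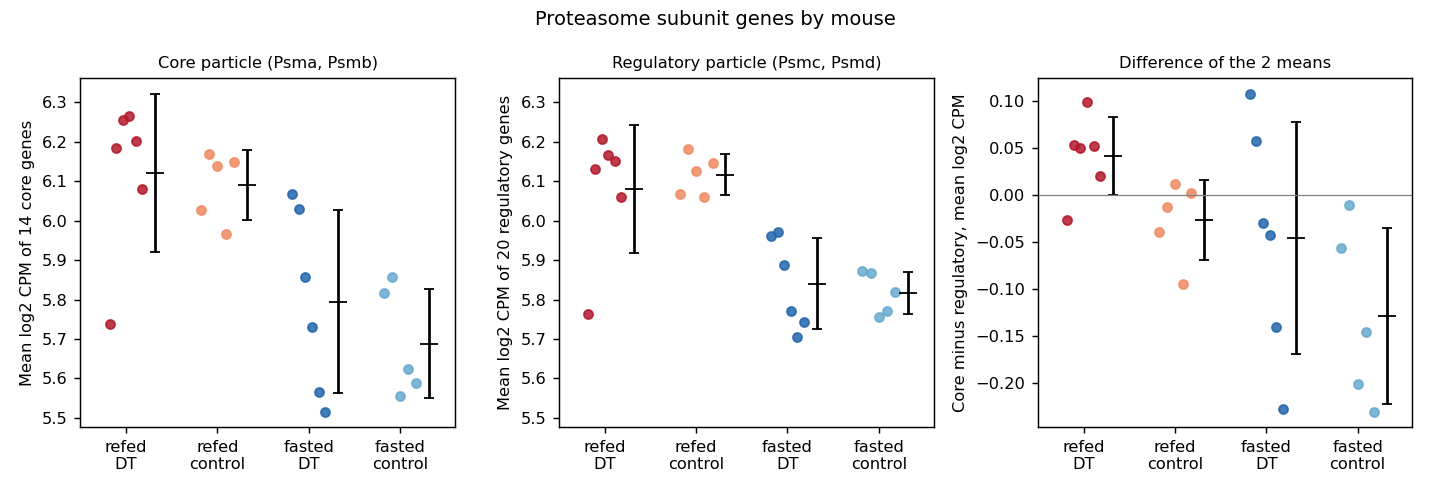
Mean log2 CPM of the 14 core genes and of the 20 regulatory particle genes in each mouse, and the difference between these means, in refed DT, refed control, fasted DT and fasted control mice (bars are mean ± SD). Within control mice, and within DT mice except mouse 13 (the low refed DT point at 5.74 and 5.76), refed mice lie above fasted mice in both particles, and the difference runs from -0.23 to 0.11.

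Refeeding was also compared within each kind of mouse. In DT mice 7 of 14 core genes and 8 of 20 regulatory particle genes rose and 0 fell, where 24.4% of all tested genes were called, 10.8% as higher and 13.5% as lower. In control mice 9 core genes and 10 regulatory particle genes rose and Psmd9 fell, where 23.3% of all tested genes were called, 10.9% as higher and 12.3% as lower. Median log2 fold changes were 0.31 for the core and 0.19 for the regulatory particle in DT mice, and 0.36 and 0.34 in control mice. Among DT mice, the regulatory particle genes Psmc4, Psmc5, Psmd7, Psmd11 and Psmd14 lay above without overlap in refed mice and 0 core genes did, where 4% of all tested genes lay above in this way. Among control mice, 6 core and 11 regulatory particle genes lay above and Psmd9 below without overlap, where 10.4% of all tested genes lay above and 11.1% below. Psmd11 had a log2 fold change of 0.41 ± 0.08 in DT mice (edgeR adjusted p = 1.04e-03) and 0.23 ± 0.09 in control mice (adjusted p = 0.0643).

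The counts in DT mice rested on few libraries. Without mouse 13, 13 core genes and 18 regulatory particle genes rose in DT mice, where 31.2% of all tested genes were called and 17.1% were higher. Without any 1 of fasted DT mice 8, 9, 10 and 11 or refed DT mice 15 and 16, the core count was 3 or 4. In control mice, 5 core genes rose without fasted control mouse 3. For this run and those with 3 or 4 core genes, the share of all tested genes called higher is not given here. With libraries scaled to totals without insulin counts, 2 core and 6 regulatory particle genes rose in DT mice, where 8.01% of all tested genes were higher. In control mice 5 core and 6 regulatory particle genes rose under that scaling, where 7.94% were higher.

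The lists of genes that rose overlapped. All 7 core genes called in DT mice were called in control mice, 77.8% of the 9 called there, and Psma3 and Psmb5 were called in control mice only. Of the regulatory particle genes, Psmc4, Psmc5, Psmd7, Psmd12 and Psmd14 were called in both, 62.5% of the DT list and 50% of the control list. These comparisons share no mice. The same overlap over all tested genes is not given here, so it is not shown to be particular to the members. Across the 34 genes, the log2 fold changes in DT and control mice had a Pearson r of 0.749 and a Spearman rho of 0.531, a description across genes that share libraries. In 31 of 34 genes both values were above 0, and in 20 the DT value was below the control value.

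**Figure D4:**
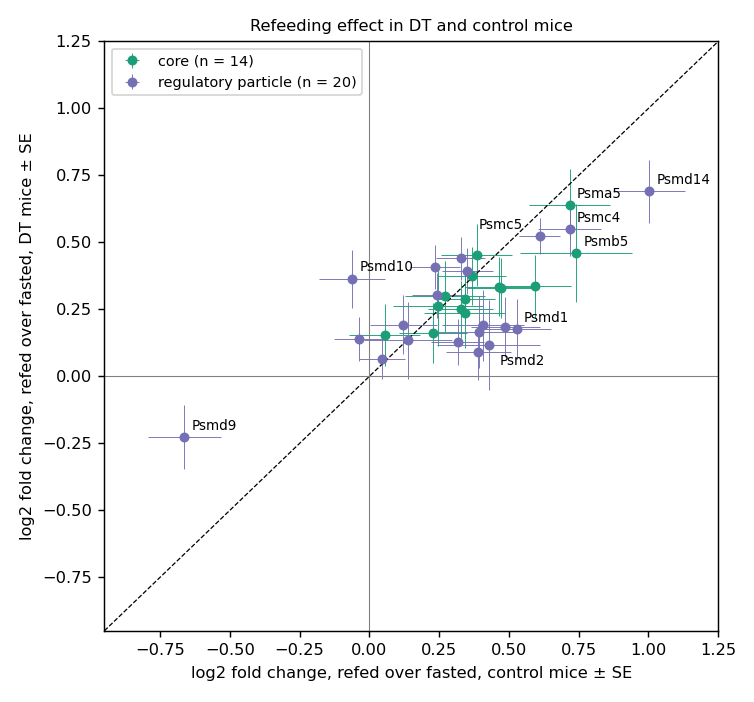
Log2 fold change of refed over fasted mice in DT mice (vertical) against control mice (horizontal) for 14 core and 20 regulatory particle genes, with bars of 1 SE and a dashed line of equal change. Psmd14 is highest in both at 0.69 and 1.00, Psmd9 is below 0 in both, and Psmd10 lies at 0.36 in DT and -0.06 in control mice.

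The difference between these feeding effects was tested by the interaction. By edgeR 0 core and 0 regulatory particle genes were called, where 0.00711% of all tested genes were called. At an unadjusted p under 0.05 there were 0 core genes and 3 regulatory particle genes, where 7.14% of all tested genes had such a p, and DESeq2 and limma voom also called 0 members. The values with the smallest p were 0.43 ± 0.16 for Psmd10, 0.44 ± 0.18 for Psmd9 and -0.35 ± 0.17 for Psmd1 (edgeR adjusted p = 0.590, 0.614 and 0.692). Without mouse 13 the Psmd1 value was -0.23. Median interaction values were -0.07 for the core and -0.05 for the regulatory particle with all mice, and 0.026 and 0.0012 without mouse 13. Standard errors of the members' interaction values ran from 0.10 to 0.27, and a call in DT mice alone or control mice alone is not shown to be a difference between them.

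Ablation of the other endocrine cells was not accompanied by a called change in any proteasome subunit gene. Between DT and control mice, 0 members were called by edgeR in fasted mice, in refed mice or on average, where 0.0284%, 0.0356% and 0.206% of all tested genes were called. Split by direction, 0.0213% were higher and 0.00711% lower in fasted mice, 0.0213% higher and 0.0142% lower in refed mice, and 0.107% higher and 0.0995% lower on average. At an unadjusted p under 0.05 there were 2 members in fasted mice, 1 in refed mice and 0 on average, where 8.33%, 10% and 11.9% of all tested genes had such a p, and DESeq2 and limma voom called 0 in each. Log2 fold changes of DT over control averaged over feeding ran from -0.13 to 0.19 with standard errors of 0.05 to 0.13. The smallest p values on average belonged to Psmc5 (0.10 ± 0.05, edgeR adjusted p = 0.444), Psmd3 (0.11 ± 0.06, adjusted p = 0.474) and Psmb2 (0.15 ± 0.08, adjusted p = 0.513).

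In fasted mice, the chaperones Psmd10 and Psmd9 had the smallest p values, and every DT mouse lay below every control mouse for both, as in 0.775% of all tested genes. Psmd10 had 11.04 to 14.2 CPM in fasted DT and 14.3 to 16.7 CPM in fasted control mice, a log2 fold change of -0.33 ± 0.11 (edgeR adjusted p = 0.441). Psmd9 had 11.1 to 15.8 CPM in fasted DT and 16.7 to 19 CPM in fasted control mice, a log2 fold change of -0.35 ± 0.12 (edgeR adjusted p = 0.451). Psmc5 had 0.14 ± 0.07 (adjusted p = 0.619). In refed mice, Psmd8, a lid subunit, had 43.4 to 69.4 CPM in DT and 69.7 to 80.6 CPM in control mice, with a log2 fold change of -0.24 ± 0.11 (edgeR adjusted p = 0.472). Its groups did not overlap, and 0.562% of all tested genes lay lower in DT mice in this way. Psmd1 had -0.21 ± 0.12 and Psmd11 0.14 ± 0.09 (adjusted p = 0.565 and 0.591). Without mouse 13 these values were -0.14 for Psmd8, -0.11 for Psmd1 and 0.091 for Psmd11.

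Levels between genes were compared per length, as CPM per kilobase of merged exons over all 22 mice. Psmb2, a structural β subunit, was highest at 72.3 ± 13.7 CPM per kilobase, followed by Psmc5 at 64.7 ± 13.4, Psma6 at 59.7 ± 10.9 and Psmb6 at 52.4 ± 10.8 (SD, n = 22), and these neighbours lay within their spread. Psmd9 was lowest at 1.87 ± 0.398, followed by Psmd5 at 6.64 ± 1.05, Psmb7 at 7.57 ± 1.02 and Psmd10 at 9.88 ± 1.44. The 3 assembly chaperones were thus among the 4 lowest members. Core genes had a median of 28.9 and regulatory particle genes of 21.1 CPM per kilobase. Merged exons include retained introns of some transcripts. Divided by the longest coding transcript instead, Psmb6 was highest at 123 and Psmd9 lowest at 5.22 CPM per kilobase, the chaperones were the 3 lowest, and the medians were 58.3 and 37.0. Within the β ring, the catalytic subunits Psmb6, Psmb5 and Psmb7 stood at 52.4, 28.3 and 7.57 CPM per kilobase of merged exons, and at 123, 28.3 and 22.3 by the longest transcript. The feeding effect and the level per kilobase had a Pearson r of 0.531 and a Spearman rho of 0.347 across the 34 genes, which share libraries.

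**Figure D5:**
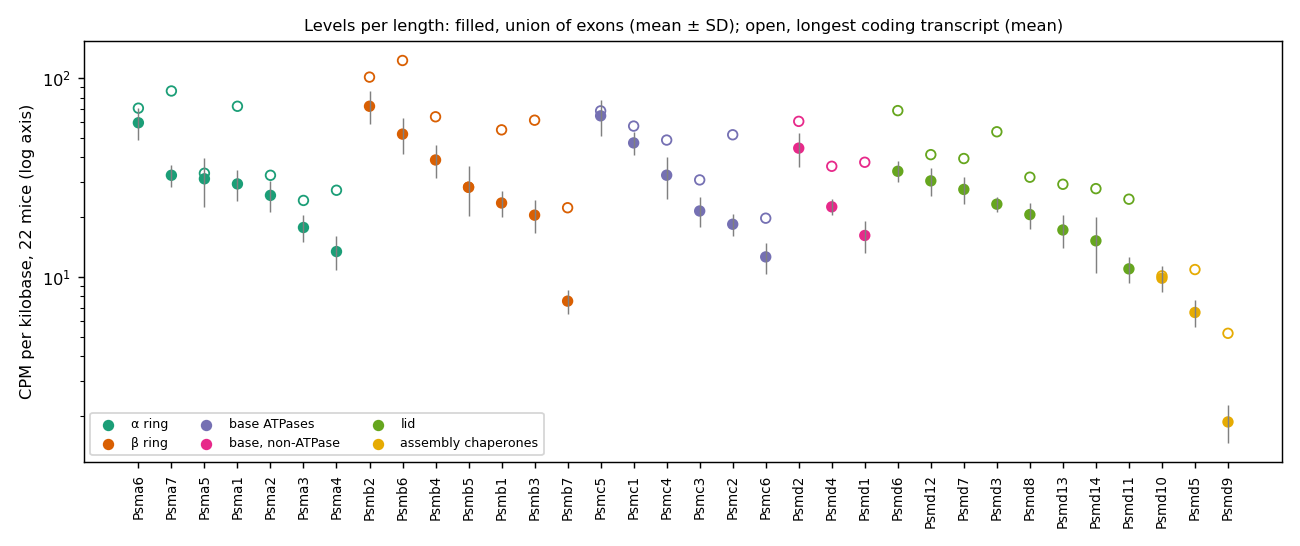
CPM per kilobase over 22 mice on a log axis for the 34 genes by part of the complex; filled points use merged exons (mean ± SD) and open points the longest coding transcript (mean). Psmb2 (72.3, filled) and Psmb6 (123, open) are the highest points and Psmd9 (1.87 and 5.22) the lowest.

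The inducible subunits of the immunoproteasome replace the catalytic β subunits on interferon signals: Psmb9 replaces Psmb6, Psmb10 replaces Psmb7 and Psmb8 replaces Psmb5. Psmb9 changed opposite to Psmb6. It lay between 5.50 and 18.6 CPM (median 8.49) in refed DT mice, against 10.2 to 20.3 CPM (median 15.4) in fasted DT mice. In refed control mice it was 5.45, 5.97, 9.62, 10.4 and 12.6 CPM, against 13.7, 14.9, 14.96, 17.05 and 18.7 CPM in fasted control mice. Refed control mice lay below fasted control mice without overlap, and the highest refed DT value was that of mouse 13. Psmb9 fell by 0.80 on the log2 scale on average (SE 0.20, edgeR adjusted p = 2.62e-03). Psmb8 had -0.26 ± 0.13 (adjusted p = 0.123) and Psmb10 0.04 ± 0.13 (adjusted p = 0.825). Immune markers, whose cells express these genes, summed to 13.03 to 592 CPM in refed DT, 10.1 to 65.1 CPM in refed control, 31.6 to 456 CPM in fasted DT and 30.7 to 210.4 CPM in fasted control mice. With immune markers as a covariate the Psmb9 value was -0.79 (adjusted p = 3.86e-03). Of the exon length of Psmb9, 5.79% overlaps Tap1 on the other strand.

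Genes that work with the proteasome were counted in the same comparison of refed with fasted mice, averaged over DT and control mice, in which 17.2% of all tested genes were called higher and 21.7% lower. Of 5 activators and inhibitors, 3 rose and 0 fell: Psme3, the nuclear activator, by 0.33 ± 0.06 (edgeR adjusted p = 8.90e-05), Psme2 by 0.28 and Psme4 by 0.44. Of 6 tested assembly factors outside the Psmd names, Pomp, the maturation factor of the core, rose by 0.53 ± 0.07 (edgeR adjusted p = 2.84e-06), Psmg1, a chaperone of the α ring, by 0.49 and Psmg3 by 0.27, and 0 fell. Of 13 further subunits and partners, 7 rose and 0 fell. Both deubiquitinases that dock on the regulatory particle rose, Usp14 by 0.55 ± 0.07 (edgeR adjusted p = 1.08e-06) and Uchl5 by 0.55 ± 0.08 (edgeR adjusted p = 1.47e-05), as did the ubiquitin shuttles Ubqln4 (0.72) and Rad23b (0.66). Of 14 tested genes around the factor Nfe2l1, which drives proteasome genes when the proteasome is inhibited, 4 rose (28.6%) and 0 fell. Over all tested genes, 17.2% were called higher. Vcp, which extracts proteins from the endoplasmic reticulum, rose by 0.54 ± 0.10 (edgeR adjusted p = 1.94e-04), Bach1 by 0.55, the ubiquitin ligase Syvn1 by 0.29 and the protease Ddi2 by 0.49. Nfe2l1 itself had -0.23 ± 0.10 (adjusted p = 0.0806).

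Among genes of ubiquitin supply, the ubiquitin-activating enzymes Uba6 and Uba1 rose by 0.69 and 0.29, and Rps27a, which encodes ubiquitin fused to a ribosomal protein, by 0.36. The polyubiquitin gene Ubb fell by 0.46. Of 8 genes of the response to damaged protein, 4 rose, 1 fell and 3 did not pass the test, and 3 of the 8 values were below 0. In this average comparison 17.2% of all tested genes were called higher and 21.7% lower. Hspa1a, Hspa1b and Dnajb1 of this list overlapped between refed and fasted mice, in DT and in control mice. The chaperones Hsph1 and Hspa8 rose by 2.75 ± 0.21 (edgeR adjusted p = 4.38e-09) and 2.56 ± 0.18 (edgeR adjusted p = 1.60e-09), against 0.85 for Psmd14, and Bag3 by 1.20, while the autophagy receptor Sqstm1 fell by 0.37. Hspa8, Rps27a and Ubb have close copies that can share reads. By list, median log2 fold changes were 0.28 for activators and inhibitors, 0.27 for assembly factors, 0.38 for further partners, 0.15 for the Nfe2l1 genes and 0.78 for damaged protein, against -0.06 over all genes tested.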

How the data were processed

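RNA of sorted β-cells was made into cDNA with a SMARTer low-input kit and Nextera XT libraries, and read as single ends on a HiSeq4000, per the labels' protocols. The deposited table holds whole read counts per gene and mouse. Per the submitters' processing notes, which give no roles, the authors used HTSeq 0.9.1, the genome build GRCm38.p6, STAR 2.7.2b and also DESeq2 1.28.1. Strand setting and annotation release are not given in the sources used here, and neither kit marks strand or molecules.

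Counts of all 22 mice were fitted in R 4.3.3 with edgeR 4.0.16 (TMM, filterByExpr by group, robust quasi-likelihood F tests, 1 coefficient per group, 18 residual degrees of freedom). P-values were adjusted by Benjamini-Hochberg over 14064 genes. All 34 members passed the filter. Levels of genes are CPM with TMM-scaled totals, and log2 CPM used a prior count of 2. Marker sums are CPM of library totals without TMM factors. Alternatives were DESeq2 1.42.0, limma voom 3.58.1, other scalings and filters, marker covariates and libraries left out. The fit was also run on simulated data, and the outcome is not given here. Exon lengths and overlaps came from GENCODE gene models of GRCm38 and promoters from RefSeq. Every mouse has its own number, but the p-values measure the spread between these mice only.

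The members and lists were chosen with earlier results of these data known. The naming rule gives full statistics for up to 10 members by smallest p in the average feeding comparison and up to 5 elsewhere, or the 3 with the smallest p where none was called. It always includes catalytic, deubiquitinating and ubiquitin-binding subunits, assembly chaperones, immunoproteasome genes and the extremes of level per kilobase, and up to 4 genes of each further list. Other members, Psmd2 among them, were described after their values were seen. The list of ubiquitin supply is not reported here in full, so no count or median is given for it.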

Additional observations from a re-analysis of the deposited data

Results flagged for a closer look

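Of 148 group values checked for a sample far from the rest of its group, 17 stood apart; chance alone puts about 1 in 20 such groups there. Refed DT mouse 13 was the lowest of its group in 12 of them. It had 61.6 CPM for Psma1 (other mice 95.9 to 110.2), 64.3 for Psma2, 24.7 for Psma4, 38.8 for Psma5 and 70.4 for Psma7. It had 39.8 CPM for Psmc3, 26.6 for Psmc6, 70.1 for Psmd12, 43.4 for Psmd8 and 74.3 for Psmd2 (other mice 194 to 221). Its mean log2 CPM was 5.74 over the core and 5.76 over the regulatory particle. Mouse 13 also had the highest insulin share, 69.4%, and the part of that share in these values was not tested.

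The other values were single genes in single mice. Refed control mouse 22 was lowest for Psmb5 at 22.02 CPM and refed control mouse 21 lowest for Psmb7 at 23.4 CPM. Fasted DT mouse 11 was highest for Psmd5 at 52.5 CPM, fasted DT mouse 6 highest for Psmd7 at 59.7 CPM, and fasted control mouse 2 highest for Psmd2 at 182 CPM.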

How the results depend on the processing

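In every alternative run, 0 members were called between DT and control mice or in the interaction. The average feeding counts stayed within 1.5 times of 11 core and 14 regulatory particle calls. In DT mice, where 7 core genes were called, the count was 2 with totals without insulin counts, 2 with only the groups compared in the fit, 4 with acinar markers as a covariate and 13 without mice 13 and 20. The regulatory particle count in DT mice was 17 without mice 13 and 20, against 8. With TMM and all mice, 10.8% of all tested genes were called higher in DT mice. The share was 8.01% with totals without insulin counts, 9.73% with acinar markers as a covariate and 17.1% without mouse 13 alone. For the fit with only the groups compared and the run without mice 13 and 20, this share is not given here. Their counts are thus not shown to be particular to the members. In control mice, totals without insulin counts gave 5 core and 7 regulatory particle calls, against 9 and 11, where 23.1% of all tested genes were called. With each library left out in turn, the counts ran from 3 to 13 (core) and 8 to 18 (regulatory particle) in DT mice. They ran from 5 to 10 and 9 to 15 in control mice, and from 10 to 14 and 13 to 17 on average. The upper end of each range was reached without mouse 13. In that run 31.2% of all tested genes were called in DT mice, 30.0% in control mice and 44.6% on average.

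Core minus regulatory particle without the assembly chaperones was -0.26 in refed DT, -0.34 in refed control, -0.32 in fasted DT and -0.35 in fasted control mice. With medians in place of means it was 0.14, 0.15, 0.16 and 0.075. Median levels by the longest transcript were 58.3 and 37.0 CPM per kilobase. Average feeding values that changed sign were -0.031 for Psmd4, -0.028 for Psmd3 and -0.041 for Psmb10 with totals without insulin counts, and for Psmb10 -0.00499 with acinar markers as a covariate; with each library left out, Psmb10 ran from -0.015 (without fasted DT mouse 10) to 0.081. None of these had passed the test, and the cause was not tested. The fit with only the groups compared gives no value for averages and interaction, which use all groups. No paired analysis was possible because each mouse number occurs once, so the groups share no numbers. The lowest counts among the members were those of Psmd9 (lowest 134).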
